A study of Mus musculus with 4 samples.

Results

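The natriuretic peptide system of the heart was followed through 6 genes out of the 33954 in the count matrices, chosen by their symbols. They are Nppa (ENSMUSG00000041616), Nppb (ENSMUSG00000029019), Corin (ENSMUSG00000005220), Npr1 (ENSMUSG00000027931), Npr2 (ENSMUSG00000028469) and Npr3 (ENSMUSG00000022206), each found as 1 row of the matrices. The study profiled single nuclei of adult mouse hearts that carried a genome-edited stop-gained allele of Vegfa, named Q150X, or the wild-type gene, with and without myocardial infarction. The groups were Q150X hearts 3 days after infarction (Q150X 3dpMI), wild-type hearts at the same time (WT 3dpMI), Q150X hearts without injury (Q150X homeostasis) and wild-type hearts without injury (WT homeostasis). Each group was 1 library. How many hearts entered a library, and the exact age and the sex of the animals, are not given in the sources used here, and the labels mark the Q150X animals "ho" without saying if 1 or both copies of the gene were edited. No difference between groups therefore has a replicate check, no test was run, and every interval printed here is a 95% interval for counting error alone.

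The heart secretes natriuretic peptides as hormones that lower blood volume and pressure. Nppa encodes atrial natriuretic peptide and Nppb encodes B-type natriuretic peptide, and both genes are classic markers of stretched or injured ventricular muscle. Corin is a membrane protease of cardiomyocytes that cuts the Nppa precursor into its active form. Npr1 is the guanylyl cyclase receptor that answers both peptides with cGMP, Npr2 is the related receptor for C-type natriuretic peptide, and Npr3 is the clearance receptor, which takes the peptides up and removes them.

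Nppa and Nppb lie on the same strand of mouse chromosome 4. Their promoters are shown because both genes had far higher levels in muscle after infarction. Both transcripts were counted in the same large classes of nuclei, in different proportions. The bearing of the motifs on this was not tested. The sequences are from RefSeq, build GRCm38.p6, and run from 250 bases before to 50 bases after the annotated start, at chr4:148000472-148000771 for Nppa and chr4:147985650-147985949 for Nppb, both on the plus strand. Capitals mark matches, on either strand, to 5 motifs, none of which overlap: TATAAA for the TATA box, the letters GATAA for GATA factors, the letters TCACACC for T-box factors, the letters TNAAGTG for NKX2-5 and the letters CATTCC for TEAD factors.
Nppa: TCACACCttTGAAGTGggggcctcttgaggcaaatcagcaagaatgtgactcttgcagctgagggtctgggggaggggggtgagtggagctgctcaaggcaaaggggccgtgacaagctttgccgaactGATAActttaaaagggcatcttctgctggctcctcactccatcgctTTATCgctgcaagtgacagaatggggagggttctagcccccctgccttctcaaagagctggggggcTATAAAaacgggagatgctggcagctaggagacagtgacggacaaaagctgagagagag
Nppb: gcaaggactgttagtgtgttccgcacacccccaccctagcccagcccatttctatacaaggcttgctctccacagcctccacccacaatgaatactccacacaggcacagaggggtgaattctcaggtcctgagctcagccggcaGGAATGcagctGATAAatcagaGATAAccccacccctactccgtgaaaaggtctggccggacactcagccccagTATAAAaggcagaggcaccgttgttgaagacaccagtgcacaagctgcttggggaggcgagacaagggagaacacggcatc
Both promoters held 1 TATA box and 2 GATA motifs. Of the 32851 RefSeq promoters of this length, 13.6% held at least 1 TATA box and 25.4% at least 1 GATA motif. The share with 2 GATA motifs was not counted. The TATA box began at position -9 in Nppa and at -31 in Nppb, counted from the start that RefSeq annotates. Nppa also held 1 T-box motif (in 3.98% of promoters) and 1 NKX2-5 motif (11.5%). Nppb held neither of those and had 1 TEAD motif (14.7%), which Nppa lacked. The promoters of Corin, Npr1, Npr2 and Npr3 held none of the 5. A match is a description of the letters and not a binding site.

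After filtering, 26024 of the 28216 deposited nuclei were kept. They held 27253827 unique molecular identifiers (UMIs) in Q150X 3dpMI, 25858851 in WT 3dpMI, 8398487 in Q150X homeostasis and 5523529 in WT homeostasis, and the median UMI count of a nucleus was 2668.5, 2012, 968 and 921 in that order. Pairs of libraries shared 38 to 98 barcodes. Nuclei were grouped in 26 clusters, with the 6 genes left out of the clustering, and 24 clusters received a class name from marker genes; such a name stands for nuclei that resemble the type. Cardiomyocyte-like nuclei made up 5.17% of the nuclei in Q150X 3dpMI and 13.7% in WT 3dpMI, 13.7% in Q150X homeostasis and 37.6% in WT homeostasis. Levels are UMIs of a gene in each 1000000 UMIs of the class in that library (CPM). The cardiomyocyte-like nuclei carried ventricular markers, with Myl2 at 269.6 to 403 CPM, while of the atrial markers Sln and Bmp10 had 0 UMIs in every library and Myl7 had 1 in all, although the atrial gene Kcnj3 stood at 264 to 695 CPM. Myl4, another atrial gene, had 32 UMIs in Q150X 3dpMI, 21 in WT 3dpMI, 6 in Q150X homeostasis and 5 in WT homeostasis. No cardiomyocyte-like nucleus held 2 or more of Myl7, Myl4, Sln and Bmp10. With so few UMIs of Myl7, Sln and Bmp10 that count could hardly differ, so nothing is read from it. Vegfa stood at 699 CPM in the Q150X 3dpMI muscle, 596 in WT 3dpMI, 921 in Q150X homeostasis and 716 in WT homeostasis, which does not check the genotype, since a transcript with a stop codon is still counted.

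Nppa was nearly silent in the muscle of uninjured hearts and far higher in that of infarcted ones. In cardiomyocyte-like nuclei it stood at 147 (134 to 161) CPM in Q150X 3dpMI and 66.6 (61.0 to 72.7) in WT 3dpMI, from 485 and 510 UMIs. Without injury it stood at 1.99 (0.730 to 4.33) CPM in Q150X and 2.89 (1.32 to 5.48) in WT, from 6 and 9 UMIs. Both injured libraries lay far above both uninjured ones. The 3dpMI over homeostasis ratio was 74.0 (33.8 to 203) in Q150X, higher than that of 99.9% of the 8331 genes measured in this comparison, and 23.1 (12.1 to 50.7) in WT, higher than that of 99.8% of 9803 genes. Nppa was measured in both comparisons through the injured libraries, so it had to differ and these ranks support nothing. At 3dpMI the Q150X level was 2.21 (1.95 to 2.51) times that in WT, a ratio above that of 98.4% of 10189 genes. At homeostasis the Q150X over WT ratio was 0.689 (0.202 to 2.17), an interval that spans 1 and rests on 15 UMIs.

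Nppb also differed between the genotypes in uninjured muscle. Its cardiomyocyte level was 241 (225 to 259) CPM in Q150X 3dpMI and 120.0 (112 to 128) in WT 3dpMI, and 28.2 (22.5 to 34.8) in Q150X homeostasis and 10.6 (7.29 to 14.9) in WT homeostasis. The UMIs behind these levels numbered 795, 919, 85 and 33. The Q150X library was the higher one at both times, and none of the 4 intervals overlapped. The ratio of Q150X over WT was 2.66 (1.76 to 4.11) at homeostasis, above that of 99.5% of 7502 genes, and 2.01 (1.83 to 2.21) at 3dpMI, above that of 97.3%. Infarction went with a ratio of 8.57 (6.84 to 10.8) in Q150X and 11.3 (8.01 to 16.6) in WT, intervals that overlap.

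Corin, the protease, was detected in most cardiomyocyte-like nuclei of every library, and its ratios were closer to 1. It stood at 1841 (1795 to 1888) CPM in Q150X 3dpMI, 2137 (2105 to 2170.2) in WT 3dpMI, 1432 (1389.9 to 1476) in Q150X homeostasis and 1407 (1366 to 1449) in WT homeostasis. Both injured libraries were higher than both uninjured ones. The 3dpMI over homeostasis ratio was 1.29 (1.24 to 1.34) in Q150X and 1.52 (1.47 to 1.57) in WT, on the log2 scale 0.36 and 0.60, where the median of all genes measured was 0.18 and 0.36. Relative to that shift Corin was thus 0.18 and 0.24 higher on the log2 scale. Between genotypes Corin had a Q150X over WT ratio of 1.02 (0.976 to 1.06) without injury and 0.861 (0.836 to 0.887) after infarction, where Nppa and Nppb were above 1.

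Of the receptors, Npr2 was counted in muscle, and Npr1 and Npr3 had few UMIs there. Npr2 stood at 37.9 (31.6 to 45.2) CPM in Q150X 3dpMI, 24.3 (20.9 to 28.0) in WT 3dpMI, 25.5 (20.1 to 31.9) in Q150X homeostasis and 21.5 (16.7 to 27.3) in WT homeostasis. The Q150X 3dpMI library was the highest, with a Q150X over WT ratio of 1.56 (1.23 to 1.97) after infarction and 1.19 (0.844 to 1.67) without it. In these nuclei Npr1 had 1 UMI in Q150X 3dpMI, 8 in WT 3dpMI, 6 in Q150X homeostasis and 2 in WT homeostasis, and Npr3 had 8, 30, 15 and 10. No ratio is read for either. Cardiomyocyte-like nuclei held 20.6% of all Npr2 UMIs in Q150X 3dpMI, 31.2% in WT 3dpMI, 27.8% in Q150X homeostasis and 44.4% in WT homeostasis.

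A ratio of 1.5 was used to mark a gene as higher or lower, wherever the pair of libraries held 50 or more of its UMIs. By that mark 3 of the 4 members measured in cardiomyocyte-like nuclei (Nppa, Nppb, Npr2) were higher in Q150X than in WT at 3dpMI, where 11% of all genes were, and none was lower, where 8.78% were. With the make-up of the muscle clusters held fixed, as described with the clusters, the ratios of Nppa and Nppb were 1.21 and 1.27, under the mark. That of Npr2 was 1.53. Within cluster 4 alone Nppb was past the mark, at 1.81 (1.42 to 2.29). At homeostasis Nppb was the 1 of 3 that was higher, where 12.2% of genes were, and none was lower (2.08%). In Q150X 2 of 4 members were higher at 3dpMI than at homeostasis (Nppa and Nppb; 27.7% of all genes), and in WT 3 of 4 (35.6%), with Corin just past the mark. Nppa was measured here through the injured libraries, so it had to differ and its place in these counts supports nothing. None was lower after infarction, where 11.2% of genes were in Q150X and 4.85% in WT.

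**Figure D1:**
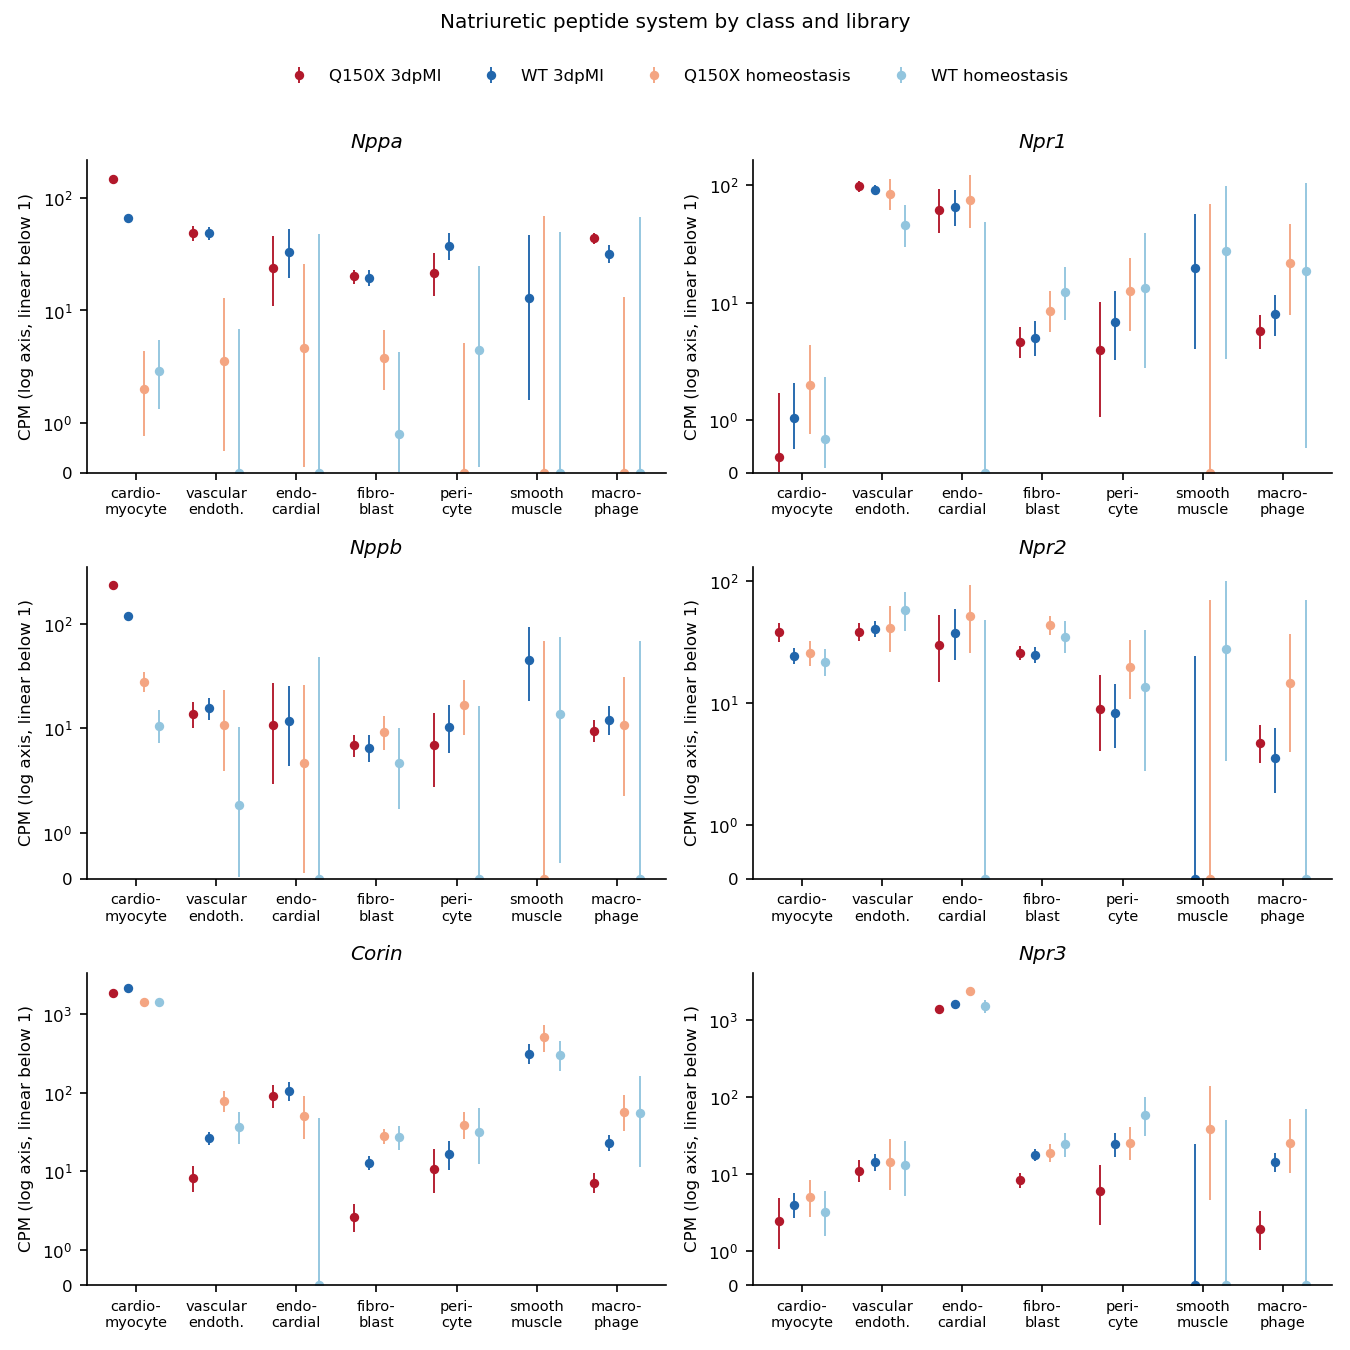
CPM of the 6 genes by class in the 4 libraries, on a log axis that is linear below 1; points are sums of UMIs over the nuclei of a class, bars are 95% Poisson intervals, and classes under 40 nuclei in a library are left out. Other named classes and the unnamed clusters are not drawn. Of the 7 classes drawn, Nppa and Nppb stand highest in cardiomyocyte-like nuclei of the 3dpMI libraries, Corin in cardiomyocyte-like and then smooth muscle-like nuclei, and Npr3 in endocardial-like nuclei of every library.

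Both peptide genes differed in level between the cardiomyocyte clusters. Cardiomyocyte-like nuclei fell into clusters 4, 6 and 14. Cluster 14, led by Shroom3, Gm13481 and Chrm2, carried the border-zone markers, a list of 9 injury genes such as Ankrd1 and Xirp2, which summed there to 9117 CPM in Q150X 3dpMI and 8046 in WT 3dpMI, against 1988 and 1726 in cluster 4. Cluster 14 held 58.5% (53.4 to 63.5) of the cardiomyocyte-like nuclei of Q150X 3dpMI and 21.2% (18.9 to 23.7) of those of WT 3dpMI, 1.07% in Q150X homeostasis and 0.572% in WT homeostasis. Cluster 4 held 32.4% in Q150X and 62.7% in WT at 3dpMI, and 62.1% in Q150X and 30.6% in WT at homeostasis. Cluster 6 held most of the rest, at 36.8% in Q150X and 68.8% in WT at homeostasis. Different clusters thus held most of the muscle nuclei in the libraries being compared.

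Within cluster 14 the genotypes lay closer together. Nppa stood there at 195 (177 to 214) CPM in Q150X 3dpMI and 158 (142 to 175) in WT 3dpMI, a ratio of 1.23 (1.07 to 1.42). The richest nucleus of each library lay in this cluster, with 30 of its 452 Nppa UMIs in Q150X and 59 of 353 in WT. Without that nucleus Nppa over all cardiomyocyte-like nuclei was 138 CPM in Q150X and 58.9 in WT. The ratio within cluster 14 was not taken without it. Nppb stood at 298 (276 to 321) in Q150X and 267 (246 to 289.7) in WT, a ratio of 1.12 (0.998 to 1.25), whose interval reaches 1. With the cluster make-up held fixed, that is, with each cluster weighted by its UMIs over both libraries, the 3dpMI ratios were 1.21 for Nppa, 1.27 for Nppb and 1.53 for Npr2, and Corin changed sides, to 1.04. In cluster 6 Nppa stood at 167 (83.3 to 298) CPM in Q150X 3dpMI and 155 (116 to 204) in WT 3dpMI, near its level in cluster 14, from 35 and 183 nuclei. The share of cluster 14 moves with the larger ratios over all cardiomyocytes, and its part in them was measured only in this way.

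In cluster 4, with fewer border-zone transcripts, Nppb differed between the genotypes. It was at 105 (84.7 to 128) CPM in Q150X 3dpMI and 57.7 (51.3 to 64.7) in WT 3dpMI, a ratio of 1.81 (1.42 to 2.29). Nppa was at 24.2 (15.2 to 36.7) and 20.8 (17.0 to 25.2) CPM in Q150X and WT, a ratio of 1.16 (0.700 to 1.86) that spans 1. Npr2 was at 39.7 (27.8 to 54.9) CPM in Q150X 3dpMI and 21.6 (17.8 to 26.0) in WT 3dpMI, a ratio of 1.84 (1.22 to 2.70), and in cluster 14 its ratio was 1.24 (0.888 to 1.73). The difference in Nppb at homeostasis was present in both clusters that held the uninjured muscle. In cluster 4 it stood at 25.7 CPM in Q150X homeostasis and 7.90 in WT homeostasis, a ratio of 3.26 (1.77 to 6.47), and in cluster 6 at 33.7 and 12.5, a ratio of 2.71 (1.39 to 5.36).

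**Figure D2:**
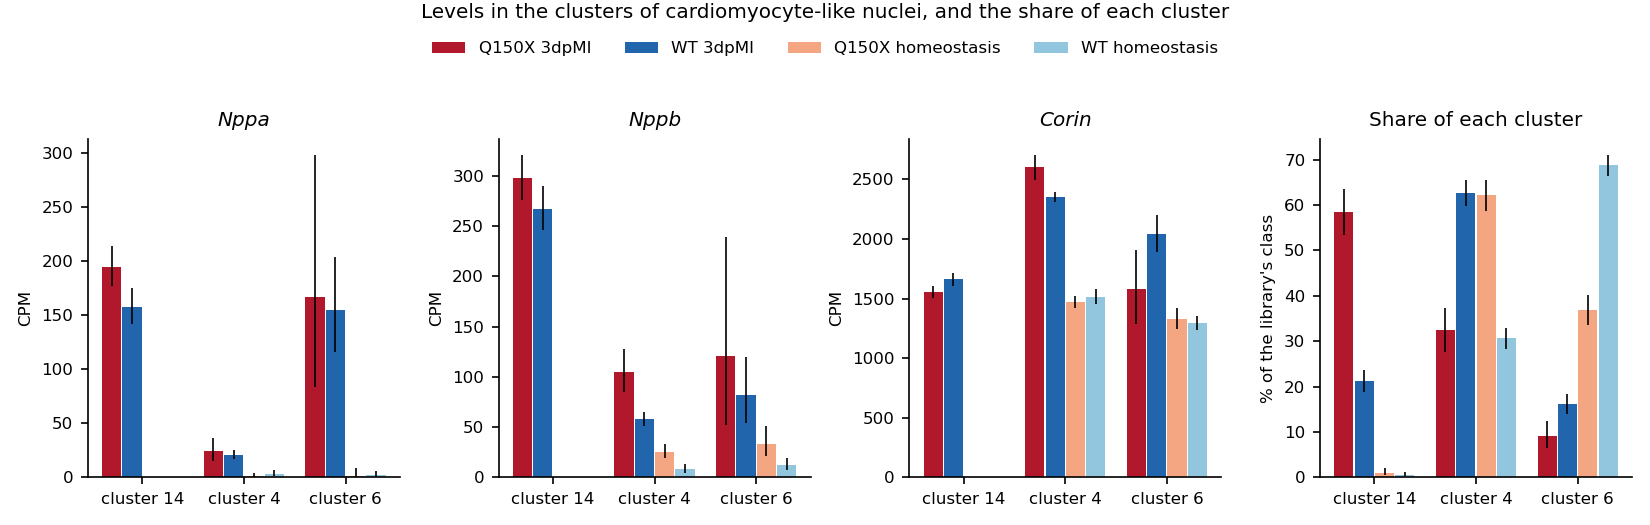
CPM of Nppa, Nppb and Corin in the 3 clusters of cardiomyocyte-like nuclei, and the share of each cluster in its library's cardiomyocyte-like nuclei, with 95% intervals as bars; cluster 14 has 9 nuclei in each homeostasis library, and no level is drawn for them. At 3dpMI Nppa and Nppb are higher in cluster 14 than in cluster 4 and Corin is lower, and cluster 14 takes 58.5% of the nuclei in Q150X 3dpMI against 21.2% in WT 3dpMI.

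Corin had the opposite order over these clusters. Within the 3dpMI libraries it stood at 1551 (1501 to 1603) CPM in cluster 14 and 2601 (2497 to 2708) in cluster 4 of Q150X, and at 1662 (1609 to 1716) and 2352 (2311 to 2395) in the same clusters of WT. The cardiomyocyte-like nuclei of each library were also ordered by their share of border-zone transcripts and cut into 5 equal bands, band 1 being the lowest. From band 1 to band 5, Corin in Q150X 3dpMI stood at 2507, 2139, 2016, 1608 and 1340.2 CPM, and in WT 3dpMI at 2318, 2415, 2236, 2079.8 and 1736. Nppa stood at 26.2, 45.2, 152, 177 and 251 CPM in Q150X 3dpMI and at 19.9, 21.8, 28.6, 86.4 and 153 in WT 3dpMI. In both libraries the precursor was highest in band 5, where its protease was lowest. In homeostasis Nppa had at most 3 UMIs in any band.

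Nppb was likewise highest in band 5 of every library. In Q150X 3dpMI it stood at 98.1, 141, 268, 279 and 334 CPM from band 1 to band 5, and in WT 3dpMI at 23.1, 49.0, 69.2, 145 and 272. Without injury it was 53.4 (35.7 to 76.6) CPM in band 5 of Q150X and 32.0 (18.6 to 51.2) in that of WT, and 16.4 (7.098 to 32.4) and 7.78 (1.60 to 22.7) in band 1. Bands of different libraries do not hold the same amount of border-zone transcript: band 3 of Q150X 3dpMI had 3342 CPM of it, near the 2946 of band 4 of WT 3dpMI. In these bands Nppa was at 152 (125 to 185) CPM in Q150X and 86.4 (72.8 to 102) in WT, and Nppb at 268 (231 to 309.9) in Q150X and 145 (127 to 164) in WT. Both peptides differed there beyond counting error, while Corin, at 2016 (1911 to 2126) in Q150X and 2079.8 (2011 to 2151) in WT, had overlapping intervals.

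**Figure D3:**
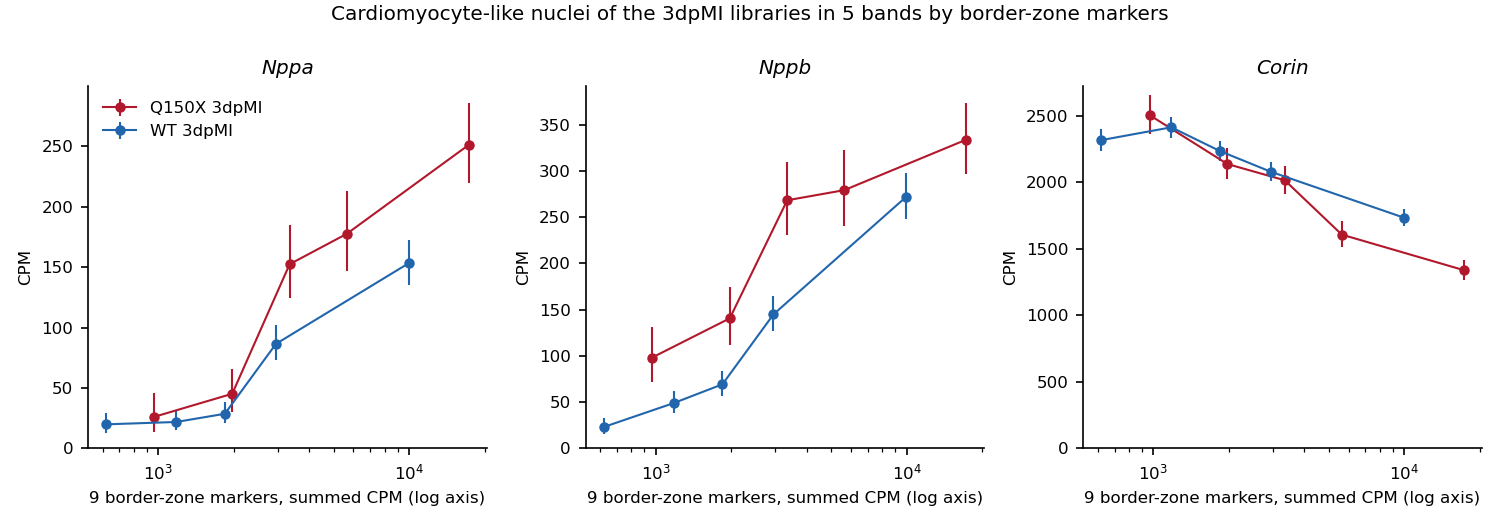
CPM of Nppa, Nppb and Corin in 5 bands of the cardiomyocyte-like nuclei of the 3dpMI libraries, against the summed CPM of the 9 border-zone markers in each band on a log axis; bars are 95% Poisson intervals. Nppa and Nppb are higher where the markers are higher in both libraries, as in band 3 of Q150X 3dpMI and band 4 of WT 3dpMI, which have like marker levels and Nppb at 268 and 145 CPM, and Corin is lower.

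The richest single nucleus had 30 Nppa UMIs in Q150X 3dpMI and 59 in WT 3dpMI, of 485 and 510 in all, and 14 and 20 Nppb UMIs. Both peptides were seen in the same nucleus in 102 of 383 nuclei of Q150X 3dpMI and 101 of 1136 of WT 3dpMI. Nppb was present in 76.7% of Nppa-positive and 52.4% of Nppa-negative nuclei in Q150X 3dpMI, and in 56.7% and 26.6% in WT 3dpMI. Deeper nuclei show more of every gene, and with each nucleus thinned to 500 UMIs 3 nuclei of Q150X 3dpMI and 6 of WT 3dpMI held both.

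Shares of nuclei depend on depth, so they were also taken at 500 UMIs per nucleus. At that depth Nppb was seen in 8.88% (6.23 to 12.2) of cardiomyocyte-like nuclei in Q150X 3dpMI, 4.93% (3.74 to 6.35) in WT 3dpMI, 1.31% (0.656 to 2.33) in Q150X homeostasis and 0.636% (0.305 to 1.17) in WT homeostasis. Unthinned, the shares were 60.8%, 31.3%, 7.87% and 1.91%, at a median of 7772, 6183, 3048 and 1515 UMIs. The order of the libraries was the same both ways. Vascular endothelial-like nuclei, a class not known as a source of Nppb, had it in 1.10% (0.632 to 1.78) in Q150X 3dpMI, 1.09% (0.727 to 1.57) in WT 3dpMI and 0.545% (0.149 to 1.39) in Q150X homeostasis when thinned. In WT homeostasis it was seen in 0 of 549, where a floor of 3 nuclei would be 0.546%. At 3dpMI the muscle shares lay above these, and in Q150X homeostasis the intervals overlapped. In WT homeostasis that floor lay within the interval of the muscle. Corin was seen in 57.4%, 60.4%, 49.3% and 45.3% of cardiomyocyte-like nuclei when thinned, with the libraries listed in the same order.

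For Nppa the thinned share in muscle overlapped that in the vessel lining. It was 5.22% (3.22 to 7.95) in Q150X 3dpMI, 3.26% (2.30 to 4.46) in WT 3dpMI and 0.358% (0.0738 to 1.04) in Q150X homeostasis, and 0 of 1573 nuclei in WT homeostasis, where a floor of 3 nuclei would be 0.191%. Vascular endothelial-like nuclei had Nppa in 3.79% (2.87 to 4.91) in Q150X 3dpMI and 3.00% (2.38 to 3.74) in WT 3dpMI, at a median of 1947 and 1243 UMIs before thinning. These intervals overlap those of the muscle, so the thinned share does not set the muscle apart from this class, and no difference between libraries is read from it. The differences of Nppa given above are in CPM. Unthinned, the muscle shares were 34.7%, 15.7%, 0.715% and 0.509%.

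Nppa was counted in every large class of the injured hearts. At 3dpMI vascular endothelial-like nuclei held 48.9 (42.0 to 56.6) CPM in Q150X and 48.6 (42.2 to 55.6) in WT, and fibroblast-like nuclei 20.1 (17.4 to 23.1) in Q150X and 19.6 (16.5 to 23.1) in WT, with genotype ratios of 1.01 (0.819 to 1.23) and 1.02 (0.822 to 1.28). Macrophage- or monocyte-like nuclei held 43.9 (39.0 to 49.1) CPM in Q150X and 32.0 (26.3 to 38.6) in WT, a ratio of 1.37 (1.10 to 1.72). At homeostasis the vascular endothelial-like nuclei had 2 Nppa UMIs in Q150X and 0 in WT, so that the WT level at 3dpMI was at least 8.78-fold higher than the 3 counts taken as the floor of that library. Cardiomyocyte-like nuclei held 34.5% of all Nppa UMIs of Q150X 3dpMI and 41.9% of those of WT 3dpMI, but 76.4% and 81.3% of the Nppb UMIs and 96.9% and 97.3% of the Corin UMIs.

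Outside the muscle, Nppa was also set against the cardiomyocyte markers of the same nuclei. Scaled from the cardiomyocyte markers in vascular endothelial-like nuclei, free RNA with the make-up of the cardiomyocyte-like nuclei would bring 2.26 CPM of Nppa in Q150X 3dpMI and 4.30 in WT 3dpMI, where 48.9 and 48.6 were counted. The scaling takes the free RNA to have the make-up of these nuclei, and the source of the Nppa was not tested. The same scaling would bring 28.3 and 138 CPM of Corin, and 8.19 and 26.5 were counted. There were 0.610 (0.544 to 0.684) Nppa UMIs per Nppb UMI in cardiomyocyte-like nuclei of Q150X 3dpMI and 0.555 (0.497 to 0.619) in those of WT 3dpMI. Cluster 6 was the muscle cluster above 1, with 1.89 (1.16 to 3.13) in WT 3dpMI, and it held 11 Nppa and 8 Nppb UMIs in Q150X 3dpMI. In all other named classes together there were 3.73 (3.19 to 4.38) and 2.89 (2.45 to 3.42). Each of the vascular endothelial-like, fibroblast-like and macrophage- or monocyte-like classes lay between 2.66 and 4.62, with lower bounds above 1. Counts of 1 gene against another are read between classes only, since the genes differ in length.

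Cluster 11, an unnamed cluster, had a higher Nppa level than the muscle. It was led by Xirp2, Pik3ap1 and Csf3r, a mixture of muscle and myeloid genes, and was made up of 614 nuclei in Q150X 3dpMI and 393 in WT 3dpMI, with a median of 765 and 739 UMIs. Its Nppa stood at 273 (233 to 317) CPM in Q150X 3dpMI and 395 (334 to 463) in WT 3dpMI, its Nppb at 70.6 (51.1 to 95.1) and 47.4 (28.1 to 74.9), and its Corin at 44.3 (29.2 to 64.5) and 60.5 (38.4 to 90.8). Nppa was the 1 of these 3 genes that stood higher there than in cardiomyocyte-like nuclei, in both libraries. Nppa UMIs per Nppb UMI were 3.86 (2.75 to 5.53) in Q150X and 8.33 (5.10 to 14.4) in WT. Cardiomyocyte markers summed to 12091 CPM in Q150X and 13762 in WT, against 61464 and 67156 in the muscle, and fibroblast markers to 8436 and 7760.1. The part of these other cell types in the Nppa level was not tested.

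**Figure D4:**
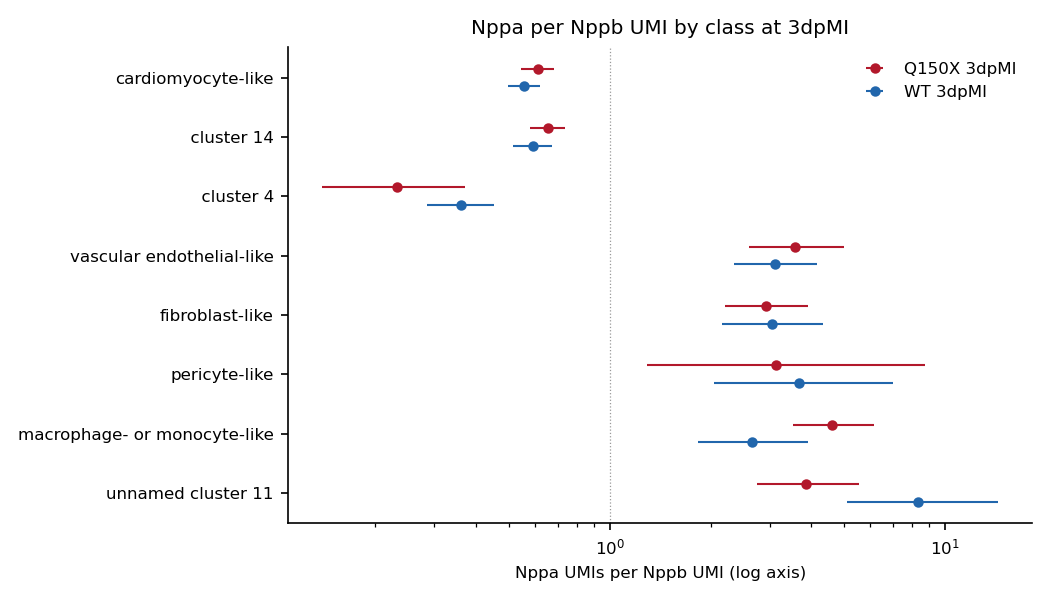
Nppa UMIs per Nppb UMI by class and for 3 clusters in the 3dpMI libraries, on a log axis with 95% intervals as bars. Cardiomyocyte-like nuclei lie below 1, at 0.610 in Q150X 3dpMI and 0.555 in WT 3dpMI, and all other classes drawn lie above it.

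Nppb outside the muscle was low. At 3dpMI it stood at 13.6 (10.1 to 18.0) CPM in vascular endothelial-like nuclei of Q150X and 15.6 (12.1 to 19.8) in those of WT, and at 6.87 (5.33 to 8.70) in fibroblast-like nuclei of Q150X and 6.44 (4.72 to 8.59) in those of WT. The genotype ratios spanned 1, at 0.877 (0.595 to 1.28) and 1.07 (0.723 to 1.59), against 2.01 in the muscle; the difference between classes was not tested. Without injury vascular endothelial-like nuclei held 6 Nppb UMIs in Q150X and 1 in WT, a ratio of 5.80 (0.704 to 267). Fibroblast-like nuclei held 29 in Q150X and 6 in WT, a ratio of 1.99 (0.810 to 5.85), and pericyte-like nuclei 12 and 0. In these classes, as in the muscle, the Q150X homeostasis level was the higher one, from few UMIs.

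Corin had a smaller site in smooth muscle-like nuclei. These stood at 313 (231 to 415) CPM in WT 3dpMI, 507 (334 to 737) in Q150X homeostasis and 301 (188 to 455) in WT homeostasis, from 48, 27 and 22 UMIs in 62, 43 and 62 nuclei. Q150X 3dpMI held 18 such nuclei, with 14 UMIs and 283 (155 to 475) CPM. Free RNA scaled from the cardiomyocyte markers would bring 31.5 CPM in Q150X 3dpMI, 109.8 in WT 3dpMI, 91.0 in Q150X homeostasis and 82.0 in WT homeostasis, below each level counted. The richest 3 nuclei held 21 of the 48 UMIs in WT 3dpMI, 18 of 27 in Q150X homeostasis and 13 of 22 in WT homeostasis. In the other named classes of 100 or more nuclei Corin lay below what free RNA would bring, except in endocardial-like nuclei of Q150X 3dpMI, at 91.1 (63.1 to 127) CPM against 31.6, where 3 of 138 nuclei held 17 of the 34 UMIs.

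Npr3, the clearance receptor, marked the endocardium, the lining of the heart chambers. In endocardial-like nuclei it stood at 1366 (1250.3 to 1490.2) CPM in Q150X 3dpMI, 1607 (1499 to 1722) in WT 3dpMI, 2376 (2174 to 2592) in Q150X homeostasis and 1485 (1225 to 1783) in WT homeostasis, from 138, 245, 228 and 93 nuclei. Q150X homeostasis was the highest library, with an interval clear of the other 3. Endocardial-like nuclei held 63.3% to 80.3% of all Npr3 UMIs of a library. The 3dpMI over homeostasis ratio was 0.575 (0.508 to 0.651) in Q150X, past the mark of 1.5 downwards, as were 12.5% of the genes measured in this class, while 16.2% were higher. The Q150X over WT ratio at 3dpMI was 0.850 (0.759 to 0.951), short of the mark that 7.51% of genes passed downwards and 6.66% upwards. WT homeostasis, with 93 nuclei, was below the 100 set for a ratio.

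The share of endocardial-like nuclei with Npr3 had the same highest library. At 500 UMIs it was 38.4% (30.3 to 47.1) in Q150X 3dpMI, 43.7% (37.4 to 50.1) in WT 3dpMI, 58.8% (52.1 to 65.2) in Q150X homeostasis and 43.0% (32.8 to 53.7) in WT homeostasis, where the unthinned shares were 59.4%, 65.3%, 67.5% and 57.0%. Cardiomyocyte-like nuclei, which should lack the gene, had it in at most 0.264% of nuclei at 500 UMIs. Without its richest nucleus the level was 1281 CPM in Q150X 3dpMI, 1574 in WT 3dpMI, 2171 in Q150X homeostasis and 1367 in WT homeostasis, in the same order.

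Fibroblast-like nuclei were among the minor sites of Npr3, and its level there differed between their clusters. It was 8.28 (6.58 to 10.3) CPM in Q150X 3dpMI, 17.5 (14.6 to 20.9) in WT 3dpMI, 18.7 (14.2 to 24.1) in Q150X homeostasis and 23.9 (16.3 to 34.0) in WT homeostasis, with Q150X 3dpMI the lowest. The Q150X over WT ratio at 3dpMI was 0.473 (0.354 to 0.630). Cluster 3, led by Kif26b, Bnc2 and Gpr39, had 3.38 (2.25 to 4.89) CPM in Q150X 3dpMI and 7.49 (5.15 to 10.5) in WT 3dpMI, and cluster 12, led by C7 and Slit3, had 39.8 (29.4 to 52.8) and 45.0 (35.9 to 55.7). Cluster 3 made up 73.4% of the fibroblast-like nuclei of Q150X 3dpMI, 42.4% of those of WT 3dpMI, 0.315% in Q150X homeostasis and 0.138% in WT homeostasis. With the cluster make-up held fixed the ratio was 0.756. Pericyte-like nuclei held Npr3 at 5.88 CPM in Q150X 3dpMI, 23.9 in WT 3dpMI, 25.2 in Q150X homeostasis and 58.1 in WT homeostasis. These levels rest on 6, 35, 18 and 13 UMIs. The few epicardial- or mesothelial-like nuclei held 10 Npr3 UMIs in 17 nuclei of Q150X homeostasis and 5 in 15 nuclei of WT homeostasis.

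Single nuclei rich in Npr3 turned up in other classes. In macrophage- or monocyte-like nuclei 13 UMIs lay in 13 nuclei in Q150X 3dpMI, while in WT 3dpMI 1 nucleus held 22 of 48 UMIs and 3 nuclei held 38. In vascular endothelial-like nuclei 3 nuclei held 30 of 40 UMIs in Q150X 3dpMI and 31 of 61 in WT 3dpMI. No genotype ratio of Npr3 is read in these classes.

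Npr1, the guanylyl cyclase receptor of both peptides, was a transcript of the vessel lining. In vascular endothelial-like nuclei it stood at 97.5 (87.6 to 108) CPM in Q150X 3dpMI, 91.1 (82.3 to 101) in WT 3dpMI, 83.7 (61.5 to 111) in Q150X homeostasis and 46.1 (29.8 to 68.0) in WT homeostasis. WT homeostasis was the lowest of the 4, with an interval clear of both 3dpMI libraries but overlapping that of Q150X homeostasis. The other 3 intervals overlapped. The Q150X over WT ratio was 1.07 (0.924 to 1.24) at 3dpMI and 1.82 (1.10 to 3.08) at homeostasis, the second from 47 and 25 UMIs. Infarction went with a ratio of 1.16 (0.857 to 1.61) in Q150X and 1.98 (1.32 to 3.09) in WT. Endocardial-like nuclei also held Npr1, at 61.6 (39.1 to 92.5) CPM in Q150X 3dpMI, 65.1 (44.8 to 91.4) in WT 3dpMI and 74.7 (42.7 to 121) in Q150X homeostasis, and had 0 UMIs in WT homeostasis, which allows up to 39.1 CPM. Of all Npr1 UMIs, vascular endothelial-like nuclei held 68.3% in Q150X 3dpMI, 71.3% in WT 3dpMI, 37.9% in Q150X homeostasis and 46.3% in WT homeostasis. Fibroblast-like nuclei held 21.8% of them in Q150X homeostasis and 29.6% in WT homeostasis.

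In the vessel lining at homeostasis 2 of 3 members measured (Corin and Npr1) were higher in Q150X than in WT, where 11.3% of genes were, and none was lower (6.43%). At 3dpMI none of 6 was higher (8.49% of genes) and Corin was lower (4.77%). Beside Corin, the summed cardiomyocyte markers of these nuclei stood at 7973 CPM in Q150X homeostasis and 3307 in WT homeostasis, and at 943 in Q150X 3dpMI and 4334 in WT 3dpMI; their part in the Corin ratios was not tested. After infarction 5 members held 50 UMIs over the pair of Q150X libraries, with Nppa higher (33.5% of genes) and Corin lower (9.96%). In WT 6 did, of which Nppa has no ratio, Npr1 and Nppb were higher (33.4%) and none was lower (7.05%). Nppa in both genotypes and Nppb in WT reached 50 UMIs through the injured library, with 2 and 0 Nppa UMIs in Q150X and WT homeostasis and 1 Nppb UMI in WT homeostasis, so they had to differ and their place in these counts supports nothing.

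Among the endothelial clusters Npr1 was highest in cluster 9, led by Kirrel3, Selp, D5Ertd615e, Kcnc2 and Vwf, of which Selp encodes an adhesion protein for leukocytes. It stood there at 169.7 (144 to 199) CPM in Q150X 3dpMI and 121 (99.6 to 145) in WT 3dpMI, and in cluster 2 at 98.1 (76.2 to 124) and 91.1 (77.3 to 107). At homeostasis cluster 9 had 98.3 (63.0 to 146) CPM in Q150X and 55.2 (15.04 to 141) in WT, and it took 44.0% of the vascular endothelial-like nuclei of Q150X homeostasis and 15.3% of those of WT homeostasis. With the make-up of clusters 2, 9 and 15 held fixed, the Q150X over WT ratio of Npr1 at homeostasis was 1.63, a value without an interval. Within a cluster this ratio spanned 1, at 1.42 (0.703 to 2.825) in cluster 2 and 1.78 (0.612 to 7.06) in cluster 9. In cluster 9 it rests on 24 UMIs in Q150X and 4 in WT.

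Npr2, the receptor for C-type natriuretic peptide, was found in several classes. Fibroblast-like nuclei held it at 25.5 (22.5 to 28.9) CPM in Q150X 3dpMI, 24.5 (21.0 to 28.4) in WT 3dpMI, 43.1 (36.2 to 51.0) in Q150X homeostasis and 34.7 (25.3 to 46.5) in WT homeostasis. Both injured libraries were below both uninjured ones, although the 2 WT intervals overlapped, with a 3dpMI over homeostasis ratio of 0.592 (0.479 to 0.735) in Q150X and 0.706 (0.506 to 1.002) in WT. Different clusters held most of these nuclei before and after infarction: cluster 0 took 3.74% in Q150X 3dpMI, 13.1% in WT 3dpMI, 72.1% in Q150X homeostasis and 64.4% in WT homeostasis, and most of the injured nuclei were in clusters 3 and 12. Within a cluster the infarction ratio of Npr2 spanned 1, at 0.694 (0.141 to 2.09) in cluster 0 and 0.842 (0.402 to 1.64) in cluster 7 of Q150X, and at 0.881 (0.394 to 1.83) and 0.943 (0.457 to 1.94) in the same clusters of WT. Its genotype ratios there spanned 1, at 1.04 (0.856 to 1.27) at 3dpMI and 1.24 (0.880 to 1.78) at homeostasis. Vascular endothelial-like nuclei held 38.2 (32.1 to 45.1) CPM in Q150X 3dpMI, 39.97 (34.2 to 46.4) in WT 3dpMI, 41.0 (26.0 to 61.5) in Q150X homeostasis and 57.1 (38.8 to 81.1) in WT homeostasis, all overlapping. Macrophage- or monocyte-like nuclei were low, at 4.68 CPM in Q150X 3dpMI and 3.52 in WT 3dpMI.

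In fibroblast-like nuclei none of 6 members was higher in Q150X than in WT at 3dpMI (5.17% of genes), and Corin and Npr3 were lower (4.26%). Corin stood there at 2.63 CPM in Q150X 3dpMI, 12.9 in WT 3dpMI, 27.9 in Q150X homeostasis and 27.0 in WT homeostasis. The summed cardiomyocyte markers of these nuclei were at 452, 1578, 4088 and 2752 CPM in that order, and their part in the Corin ratios was not tested. At homeostasis none of 3 passed the mark in either direction, where 10.3% of genes were higher and 2.45% lower. After infarction Nppa was the 1 of 6 higher in each genotype, where 33.2% of genes were in Q150X and 36.5% in WT. It held 12 UMIs in Q150X homeostasis and 1 in WT homeostasis and was measured through the injured libraries, so that count supports nothing. Lower after infarction were 4 of 6 in Q150X (Corin, Npr1, Npr2 and Npr3; 11.6% of genes) and 2 of 6 in WT (Corin and Npr1; 9.2%), with the change of clusters described for Npr2.

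**Figure D5:**
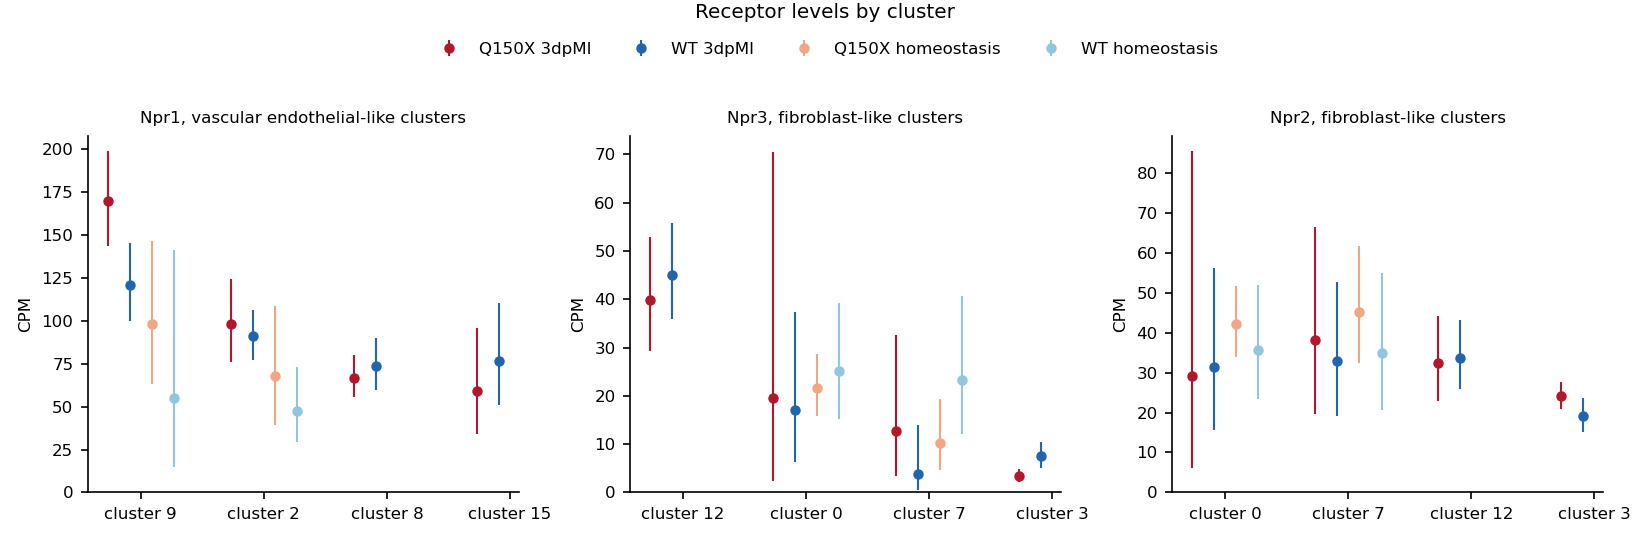
CPM of Npr1 in the vascular endothelial-like clusters and of Npr3 and Npr2 in the fibroblast-like clusters, by library, with 95% Poisson intervals; clusters with under 60 nuclei in a library are left out. At 3dpMI Npr1 is highest in cluster 9, at 170 CPM in Q150X 3dpMI and 121 in WT 3dpMI, and Npr3 is at 39.8 and 45.0 CPM in cluster 12 against 3.38 and 7.49 in cluster 3.

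Other genes of the natriuretic and cGMP pathway differed in both directions in the muscle. The muscle ratios of this list and of the lists below are over all cardiomyocyte-like nuclei. The cluster make-up of those nuclei differed between the libraries, and it was held fixed for the members only. Of a list of 24, covering other ligands, processing, cGMP kinases, soluble guanylyl cyclase, phosphodiesterases and export, 23 were in the files and 13 were measured between genotypes at 3dpMI. In Q150X over WT 2 were higher by the mark of 1.5 (beside 11% of all genes), 2 were lower (8.78%), and the median log2 ratio was -0.31, where it was 0.06 over all genes. Ide, an insulin-degrading protease that also cuts natriuretic peptides, stood at 117 CPM in Q150X 3dpMI and 277 in WT 3dpMI, a ratio of 0.424 (0.380 to 0.473). Gucy1a2, a subunit of the nitric oxide receptor, was at 2.12 CPM in Q150X and 7.97 in WT, a ratio of 0.267 (0.103 to 0.583). Vasp, an actin regulator that cGMP kinase phosphorylates, was higher, at 33.7 in Q150X and 16.3 in WT, a ratio of 2.06 (1.58 to 2.69). The proprotein convertase Pcsk6 was also higher, at 7.89 and 4.05 CPM, a ratio of 1.95 (1.11 to 3.39). Pcsk6 was also among the leading genes of fibroblast-like cluster 7. The muscle clusters of the 3dpMI libraries held fibroblast markers at a summed 1242 to 3215 CPM. The part of other cell types in the low muscle levels of Pcsk6 and Gucy1a2, here and in the infarction ratios below, was not tested.

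At homeostasis the list held 1 higher gene of 9 measured (12.2% of all genes) and none lower (2.08%), with a median log2 ratio of 0.17, equal to that of all genes. It was Furin, a protease that can cut the Nppb precursor, at 27.2 CPM in Q150X and 17.0 in WT, a ratio of 1.60 (1.12 to 2.30). Infarction went with 1 higher and 3 lower of 11 in Q150X, where 27.7% of all genes were higher and 11.2% lower, and the median log2 ratio was -0.13 against 0.18 over all genes. In WT 4 of 12 were higher and 3 lower, where 35.6% and 4.85% of genes were, and the median was 0.11 against 0.36. Vasp was at 33.7 CPM in Q150X 3dpMI and 5.96 in Q150X homeostasis, a ratio of 5.65 (3.41 to 9.88), and its WT ratio was 2.12 (1.36 to 3.43). Pde3a, a phosphodiesterase that cGMP inhibits, stood at 518 CPM in Q150X 3dpMI and 1042 in Q150X homeostasis, and at 697 in WT 3dpMI and 1093 in WT homeostasis, with ratios of 0.497 (0.469 to 0.528) and 0.638 (0.611 to 0.666). Gucy1a2 and Pcsk6 were lower in both genotypes, with ratios of 0.111 and 0.518 in Q150X and 0.331 and 0.324 in WT. Ide was higher in WT 3dpMI than in WT homeostasis, with a ratio of 2.58 (2.29 to 2.90), as was the exporter Abcc4 at 1.65 (1.33 to 2.06). The comparisons share libraries, so they are not independent of one another.

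Of 22 transcription factors and cofactors of the Nppa and Nppb promoters, 20 were measured between genotypes at 3dpMI. Hand2 and Srf, factors of heart muscle gene expression, were the 2 higher in Q150X (11% of all genes), with ratios of 1.74 (1.46 to 2.07) and 1.55 (1.06 to 2.25). Nfatc2, a calcineurin target, was the 1 lower (8.78%), with a ratio of 0.593 (0.509 to 0.688). At homeostasis 1 of 17 was past the mark upwards (12.2%) and none downwards (2.08%). It was Mef2c, a muscle factor at 182 CPM in Q150X and 105 in WT, a ratio of 1.73 (1.502 to 1.98). In Q150X 4 of 19 were higher after infarction and 2 lower, beside 27.7% and 11.2% of all genes, with Nkx2-5 at 2.33 (1.40 to 4.01), Yap1 at 1.57 and Mef2c at 1.54, and Myocd at 0.615 and Nfatc3 at 0.664. In WT 6 of 20 were higher and none lower, beside 35.6% and 4.85%, among them Hey2 at 3.87 (1.87 to 9.28), Mef2c at 2.68 (2.39 to 3.02) and Yap1 at 1.53. The median log2 ratio of this list was -0.07 between genotypes at 3dpMI and 0.04 at homeostasis, and 0.09 for infarction in Q150X and 0.26 in WT, all below the median of all genes. Of 7 secretory granule genes at most 3 were measured. Their median log2 ratio was 0.36 between genotypes at 3dpMI (0.06 over all genes) and 0.10 at homeostasis (0.17 over all genes). For infarction it was 0.21 in either genotype, beside 0.18 over all genes in Q150X and 0.36 in WT. Sort1, a sorting receptor, was the 1 of 3 past the mark after infarction in Q150X, at 2.87 (1.58 to 5.53), where 27.7% of all genes were higher.

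In the classes that hold the receptors, the same pathway list was counted without naming genes, beside the shares of all genes of the class past the mark in that comparison. In vascular endothelial-like nuclei 1 of 16 was higher (8.49% of genes) and 6 lower (4.77%) in Q150X over WT at 3dpMI, and at homeostasis 3 of 6 were higher (11.3%) and 1 lower (6.43%). Infarction went there with 4 higher (33.5%) and 5 lower (9.96%) of 13 in Q150X, and with 5 higher (33.4%) and 4 lower (7.05%) of 15 in WT. The median log2 ratio of the list in these nuclei was -0.09 between genotypes at 3dpMI, against 0.09 over all genes, and 0.33 at homeostasis, against 0.01. In endocardial-like nuclei 1 of 9 was higher (6.66%) and 1 lower (7.51%) in Q150X over WT at 3dpMI. After infarction in Q150X 2 of 7 were higher there (16.2%) and 2 lower (12.5%). In fibroblast-like nuclei none of 18 was higher (5.17%) and 1 lower (4.26%) between genotypes at 3dpMI, and at homeostasis 1 of 17 was higher (10.3%) and none lower (2.45%). Infarction there went with 4 higher (33.2%) and 7 lower (11.6%) of 17 in Q150X and 4 higher (36.5%) and 5 lower (9.2%) of 17 in WT.

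The genes with levels most like each member's were sought over 24 sums of class and library, among 10280 genes, by Pearson's r of log2 CPM with 10 added. The sums share libraries and their depth, so the values describe likeness only. Nppb ran closest to Ankrd1 (r = 0.917), Hspb7 (0.915) and Pak6 (0.898), and Ankrd1 is itself one of the border-zone markers. Nppa ran closest to Mt1 (0.885), Eno1 (0.852) and Pkm (0.850), a metallothionein and a pair of glycolytic enzymes. Corin ran closest to Chrm2 (0.982), Lrrc2 (0.978) and Txlnb (0.967). Npr1 followed Car8 (0.962), She (0.957) and Mmrn2 (0.954), genes none of which helped to name a class. Npr2 followed Wwc2 (0.914), Nfib (0.897) and Tmtc1 (0.881). Npr3 followed Gpm6a (0.969), Smoc1 (0.966) and Chrm3 (0.965), where Smoc1 is a marker that named the endocardial cluster.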

How the data were processed

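Nuclei of mouse heart were made into libraries with the 10x Genomics Chromium 5' kit, per the labels' protocols. The deposited values are raw counts of UMIs, which the authors obtained from Cell Ranger 7.1.0, per the file headers. The submitters' processing notes also name Scanpy and GRCm39; no genome of that build was used, so genes carry no coordinates, and promoters are from RefSeq, build GRCm38.p6.

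Nuclei under 500 UMIs or 300 genes, or over 10% mitochondrial UMIs, were removed. Scrublet, run on each library in Scanpy 1.11.5, removed 714 doublets in Q150X 3dpMI, 852 in WT 3dpMI, 336 in Q150X homeostasis and 202 in WT homeostasis; in Q150X homeostasis its automatic threshold marked 0.0154%, and the top scores were taken instead, at 0.8% for each 1000 nuclei. The libraries were clustered together on 2000 variable genes of unit variance, 30 components, 15 neighbours and Leiden resolution 1 (leidenalg 0.10.2, igraph 0.11.9), without the 6 genes and without mitochondrial, ribosomal protein, sex-linked and haemoglobin genes. Marker lists of 17 classes named the clusters, and clusters 11 and 20 stayed unnamed; these rebuilt names may differ from the study's.

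UMIs were summed per class and library. Sums have exact Poisson, ratios exact conditional binomial and shares Clopper-Pearson intervals, all at 95%, and they cover counting error only. The ratio intervals alone were run on simulated data, for the cardiomyocyte sums of the genotype comparisons. Those counts were drawn as Poisson, as the intervals assume, so the run checks the calculation only. Ratios needed 100 nuclei in both libraries. Beside a level of 0, the level that 3 counts would give is printed as a floor, which is not a 95% bound. Free muscle RNA was scaled from the cardiomyocyte markers of a class. Named genes are the 6 members, list genes past a ratio of 1.5 in cardiomyocytes (up to 3 at each end), and the 3 genes most like each member among those with 500 UMIs. Members, lists and markers were chosen with earlier results of these data known; the comparison with cluster make-up held fixed and the bands of border-zone markers were added after seeing the data. How strand was used in counting is not known here; antisense partners of Nppa and Corin had at most 60 and 236 UMIs in a library. Calculations used numpy 2.4.6, scipy 1.17.1 and pandas 2.3.3 under Python 3.11.15, with scikit-learn 1.9.0 and matplotlib 3.10.9.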

Additional observations from a re-analysis of the deposited data

Results flagged for a closer look

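Corin in vascular endothelial-like nuclei had genotype ratios on opposite sides of 1 at the 2 times. Q150X over WT was 2.13 at homeostasis, from 78.4 CPM in Q150X and 36.9 in WT, and 0.309 at 3dpMI, from 8.19 CPM in Q150X and 26.5 in WT. With 1 library per group the difference between these ratios was not tested. The summed cardiomyocyte markers of the same nuclei moved with it, at 7973 CPM in Q150X and 3307 in WT at homeostasis and at 943 in Q150X and 4334 in WT at 3dpMI, and all 4 Corin levels were below what free RNA scaled from those markers would bring (158, 57.4, 28.3 and 138 CPM in the order Q150X homeostasis, WT homeostasis, Q150X 3dpMI, WT 3dpMI). Their part in the result was not tested.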

How the results depend on the processing

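Each ratio was recomputed with a minimum of 1000 UMIs per nucleus, no doublet removal, at most 5% mitochondrial UMIs, Leiden resolution 2, separate clustering of the libraries, equal weight for each nucleus, totals without the 50 most abundant genes, and, for genotype ratios, the cluster make-up held fixed. Not every ratio has every value: endocardial Npr3 had no make-up to hold fixed, being 1 cluster, and with 1000 UMIs too few nuclei with the class name were left in Q150X homeostasis for its infarction ratio and for the vascular endothelial ratios that use that library. Of the values that answer a comparison, 91 stayed within counting error, 11 moved and 1 reversed. With the make-up held fixed, Q150X over WT at 3dpMI became 1.21 for Nppa and 1.27 for Nppb, and Corin reversed to 1.04. Weighting nuclei equally gave Corin 0.914 for Q150X over WT at 3dpMI, 1.41 for infarction in Q150X and 1.63 in WT, and Nppb 6.82 for infarction in Q150X. Without the 50 most abundant genes, Corin was 0.955 for Q150X over WT at homeostasis and 1.38 for infarction in WT. Endocardial Npr3, Q150X over WT at 3dpMI, was 0.676 with 1000 UMIs and 0.686 with separate clustering, which also gave 0.502 for infarction in Q150X. The cause of these moves was not tested. Nppb at homeostasis stayed between 2.37 and 3.01. Of the other values 147 stayed and 31 moved, most of them shares of nuclei taken at another depth. Depth limits Nppa at homeostasis, with 6 and 9 cardiomyocyte UMIs in Q150X and WT. No paired analysis was possible because each group is 1 library.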
